A study of Mus musculus with 6 samples.

Results

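The CCN genes encode a small family of secreted matricellular proteins, and 5 of them, Wisp1, Wisp2, Ctgf, Cyr61 and Nov, were followed in messenger RNA of the mouse aorta. They were taken by name, under the older symbols that the count table uses, and make up 5 of its 53735 rows. Their current symbols are Ccn4, Ccn5, Ccn2, Ccn1 and Ccn3. The family was picked with the difference of Wisp1 between genotypes already known, so the differences of the 5 genes between genotypes are given as descriptions, and counts of members called by a test are read as no evidence. Libraries of 2 genotypes were compared, Mymsl KO, in which the long noncoding RNA Mymsl is knocked out, and Mymsl WT, with 3 libraries each. Both groups are labelled as aorta, and the protocol in the labels names medial smooth muscle cells, purified before extraction, as the source of the RNA. The design text speaks of 3 pairs of KO and WT mice, without saying what makes a pair. The sources used here do not state the kind of knockout allele, the strain, age and sex of the mice, or whether a library holds 1 animal, so p-values reflect only how these libraries vary, which may be partly technical. Values are listed below in the order of replicates 1, 2 and 3 of a genotype.

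CCN proteins are built from modules related to insulin-like growth factor binding proteins, von Willebrand factor type C repeats and thrombospondin type 1 repeats, and most end in a cystine-knot module. They lie in the extracellular matrix, bind integrins and heparan sulfate proteoglycans, and change how cells respond to growth factors rather than forming the matrix scaffold. In the vessel wall Cyr61 and Ctgf are known as quickly induced targets of serum response factor and of the YAP, TAZ and TEAD factors, Wisp1 as a target of beta-catenin, and Nov and Wisp2 as genes of quiescent smooth muscle whose products restrain its growth.

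Total counts lay between 20048216 and 25521123 per library, and mitochondrially encoded genes held 5.66% to 9.02% of them in WT and 10% to 18.9% in KO. Of all rows, 14145 had enough reads to be tested. Their median log2 fold change (KO over WT) was 0.012, with 47.5% of them below 0. The defining smooth muscle markers were abundant: 8 genes including Acta2, Myh11 and Tagln summed to between 48818 and 52207 CPM (read counts scaled to a common library size) in WT and between 40232 and 54217 in KO. The labels were not checked against the level of the targeted gene, since no row of the count table has the name Mymsl.

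All 5 genes passed the filter on low counts, and on a scale of CPM per kilobase of exon they fell into 3 tiers. In WT, Ctgf had a level of 507 ± 159 (SD, n = 3) and Nov of 423 ± 5.86 CPM per kilobase. Cyr61 (175 ± 79.2) and Wisp2 (112 ± 13.6) came next, and Wisp1 was last at 3.08 ± 0.225 CPM per kilobase. Neighbours within a tier did not differ beyond their spread: Ctgf stood above Nov in 2 of 3 WT libraries and in 1 of 3 KO libraries, and Cyr61 above Wisp2 in 2 of 3 libraries of each genotype. Between tiers the ranges were apart in both genotypes. Wisp3 (Ccn6), a family gene that is not among the 5, had 1 count in WT replicate 2 and 0 counts in the other libraries, where 3 counts would correspond to between 0.124 and 0.155 CPM.

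The genes differ in size and place (GENCODE M21, GRCm38). Cyr61 spans positions 145646976 to 145649981 of chromosome 3 on the minus strand, and Ctgf 24595442 to 24598683 of chromosome 10 on the plus strand. Nov (54745702 to 54754039) and Wisp1 (66891320 to 66923201) both lie on the plus strand of chromosome 15, and Wisp2 spans 163820861 to 163833146 of chromosome 2 on the plus strand. Every one of them has 5 exons in its longest coding transcript. The coding part of Wisp2 is 251 codons long, against 348 in Ctgf, 354 in Nov, 367 in Wisp1 and 379 in Cyr61. Wisp2 is the family member without the terminal cystine-knot module. Ctgf alone of the 5 is overlapped by another annotated gene, Gm15270 on the opposite strand. The sources used here do not state the strand setting of the counting, so reads of the Ctgf row and of that antisense gene cannot be told apart.

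Wisp1, which encodes a secreted protein first known as a gene induced by Wnt1, was the member that differed most between genotypes. It had 442, 399 and 416 counts in WT, or 18.3, 15.9 and 17.2 CPM. In KO it had 153, 186 and 256 counts, or 7.89, 8.89 and 11.1 CPM. Every KO library lay below every WT library. The means were 17.1 ± 1.25 CPM in WT and 9.28 ± 1.63 CPM in KO (SD, n = 3 each). The log2 fold change was −0.88 ± 0.138 (SE), which is a KO level of 0.543 times that of WT (0.493 to 0.597 over 1 SE on either side). The 95% Poisson interval of the highest KO library (9.76 to 12.5 CPM) stayed below that of the lowest WT library (14.3 to 17.5 CPM), although such intervals cover counting error only. With each library left out in turn, the log2 fold change lay between −1.03 (without KO replicate 3) and −0.78 (without KO replicate 1). In bulk RNA, fewer cells that express a gene and less RNA per cell cannot be told apart.

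**Figure D1:**
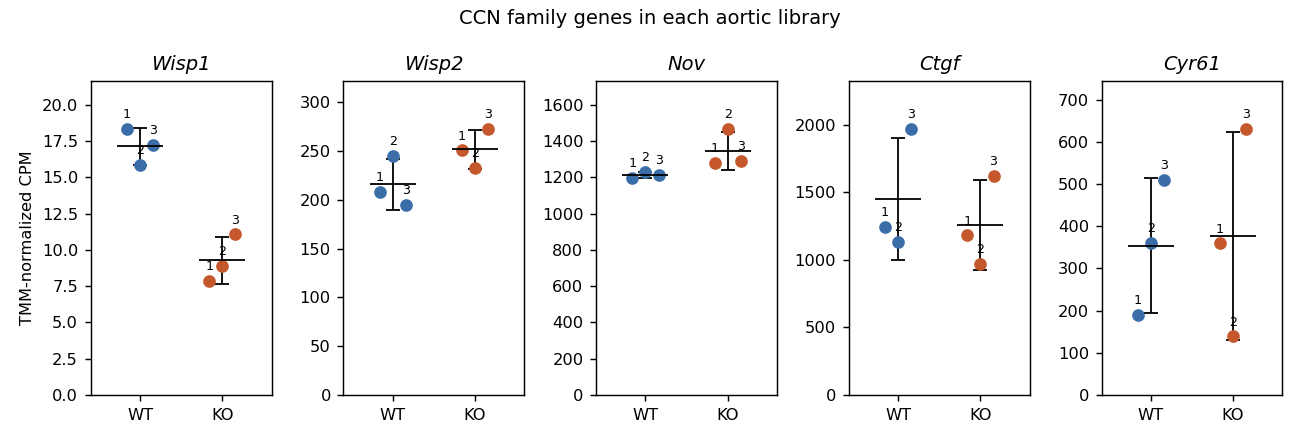
Level of each gene in TMM-normalized CPM (linear axis from 0) in the 3 WT (blue) and 3 KO (orange) libraries. Numbers are replicate numbers, the horizontal bar is the mean and the whisker the SD. Wisp1 sits between 15.9 and 18.3 CPM in WT and between 7.89 and 11.1 CPM in KO, and Cyr61 spreads widely within both genotypes.

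Markers of some other cell types also differed among the libraries in which Wisp1 was low. Heart muscle markers (8 genes, 6 of which passed the filter, none at 0 counts throughout) summed to 77.3, 28 and 20 CPM in KO and to between 18.2 and 24 CPM in WT, so they were high in KO replicate 1, the library lowest in Wisp1. Cartilage markers (8 genes, 4 of which passed the filter, with Matn1 at 0) summed to between 57.5 and 79 CPM in WT and between 45.5 and 61.4 CPM in KO. The highest of the 4 was Comp (38 CPM in WT and 26.6 CPM in KO), which is also on the list of other matricellular proteins. Of the 4, 3 had log2 fold changes below 0 and 1 above, Col11a2 (0.44 ± 0.233, SE). Adventitial fibroblast markers (10 genes, all passing, none at 0) summed to 2682, 1484 and 2553 CPM in KO and to between 1642 and 2334 CPM in WT. The part of these in the Wisp1 difference was not tested. Without KO replicate 1, the library highest in heart muscle markers, Wisp1 had a log2 fold change of −0.78 ± 0.134 (SE).

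The tested gene before Wisp1 on chromosome 15 is Tg, the thyroglobulin gene, which ends 40598 bases before Wisp1 starts. Tg had 5.73, 7.23 and 7.7 CPM in WT and 2.42, 4.92 and 4.02 CPM in KO. Its groups did not overlap, with KO lower, which held for 11.3% of all tested genes. Its log2 fold change was −0.86 ± 0.256 (SE), with an adjusted p of 0.275 in edgeR. On the other side Ndrg1, a stress-responsive gene 6116 bases away, measured 174 ± 10.7 CPM in WT and 159 ± 20.2 CPM in KO (log2 −0.13 ± 0.101, adjusted p = 0.553). Sla, a tested gene that lies within Tg on the opposite strand, had a log2 fold change of 0.61 ± 0.489 (SE). Its level was low, at 0.437 CPM in WT and 0.664 CPM in KO. These neighbours were chosen after their values were seen.

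Genes whose level followed that of Wisp1 most closely over the 6 libraries were found by the root mean square difference of log2 CPM, after centring each gene on its own mean, among 11788 genes. The nearest was Hgf, hepatocyte growth factor (a difference of 0.135), with 3.2, 2.42 and 2.82 CPM in WT and 1.5, 1.39 and 2.16 CPM in KO. Cxxc4, which encodes an inhibitor of Wnt signalling that binds Dishevelled, followed (0.151), with a mean of 12 CPM in WT and 7.66 CPM in KO. Pi15, a secreted protein gene, fibronectin Fn1 and fibulin Fbln7 came next (0.163, 0.186 and 0.192). Because Wisp1 was chosen for being low in KO, any gene near it in this measure is low there too. Among the other members, Ctgf was the nearest to Wisp1 (0.447) and Cyr61 the farthest (0.845). Neither was close, as they ranked 3713th and 11389th of the 11788 genes.

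Nov, a member found in resting arterial smooth muscle, was the steadiest of the 5. It measured 1196, 1230 and 1213 CPM in WT and 1281, 1467 and 1292 CPM in KO. All KO libraries stood above all WT libraries, by a small amount. The log2 fold change was 0.15 ± 0.085 (SE), or 1.11 times the WT level, and it was 0.086 without KO replicate 2, the highest library. Coefficients of variation of Nov were 1.39% in WT and 7.73% in KO.

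Wisp2, known for slowing the growth of smooth muscle cells, measured 209, 245 and 195 CPM in WT. In KO it measured 251, 233 and 273 CPM. The groups overlapped, since KO replicate 2 lay below WT replicate 2. Its log2 fold change was 0.22 ± 0.103 (SE), or 1.17 times the WT level, with a range from 0.16 (without WT replicate 3) to 0.32 (without WT replicate 2). Wisp2 was highest of WT in replicate 2 and lowest of KO in replicate 2, and the adventitial fibroblast markers were lowest in replicate 2 of both genotypes. The part of those cells in the level of Wisp2 was not tested. The profile of Nov differed from that of Wisp2 by 0.158 in the same measure of likeness, the smallest value between any 2 members. Many other genes were nearer: of 11788, Nov ranked 2475th near Wisp2, and Wisp2 ranked 5532nd near Nov.

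Ctgf, the connective tissue growth factor gene and a classic target of TGF-beta and YAP, had the highest WT mean of the 5. It measured 1243, 1136 and 1970 CPM in WT and 1181, 970 and 1621 CPM in KO. The groups overlapped, with replicate 3 of each genotype well above the other libraries. The log2 fold change was −0.21 ± 0.251 (SE), and without WT replicate 3 it was 0.084. Without KO replicate 3 it was −0.43, and without KO replicate 2 it was −0.048.

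Cyr61, an immediate early gene of mechanical and growth factor signals, varied more than any other member. It measured 191, 360 and 510 CPM in WT. In KO it measured 359, 139 and 631 CPM. The lowest and the highest of the 6 libraries were thus both KO libraries, 4.55-fold apart. The log2 fold change was 0.09 ± 0.53 (SE). It went below 0 without KO replicate 3 (−0.51) and without WT replicate 1 (−0.21), and it was 0.49 without KO replicate 2 and 0.46 without WT replicate 3. It was also below 0 in limma-voom (−0.057).

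The promoter window of Cyr61 is shown because this gene is the member whose level differed most between libraries of a single genotype. The RefSeq promoter table (GRCm38.p6) held 1 of the 5 members, Cyr61 under its current symbol, and not Ctgf, Nov, Wisp1 or Wisp2. The window covers chr3:145649936-145650235 on the minus strand, 250 bases before the start and 50 after it, written 5′ to 3′, with capitals marking the match to the TEAD motif GGAATG on the opposite strand.
Cyr61 promoter: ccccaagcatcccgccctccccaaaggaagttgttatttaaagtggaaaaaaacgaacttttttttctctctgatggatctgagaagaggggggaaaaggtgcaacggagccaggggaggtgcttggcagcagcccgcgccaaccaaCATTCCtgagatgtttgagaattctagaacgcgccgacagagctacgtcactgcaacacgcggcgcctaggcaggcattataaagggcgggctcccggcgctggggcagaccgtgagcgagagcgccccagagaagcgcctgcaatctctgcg
That motif begins 103 bases before the start, and 14.7% of the 32851 promoter windows of the same length hold it on either strand. The motif ACGTCA, the core of a cyclic AMP response element, begins at −59 (7.51% of windows), and TATAAA begins at −25 (13.6% of windows), neither overlapping the TEAD motif. No match was found to the full cyclic AMP response element TGACGTCA, to the AP-1 motif TGANTCA, to the TCF motif ATCAAAG or to a CArG box, which 1.79%, 7.81%, 3.73% and 1.63% of windows hold. Both strands were searched, and ACGTCA is contained in TGACGTCA. Matches describe the letters of this window, and say nothing of which factor was bound in these aortas.

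Genes closest to Cyr61 over the 6 libraries were immediate early genes. Btg2, an antiproliferative gene of the early response, was nearest (a root mean square difference of 0.254), followed by the phosphatase gene Dusp1 (0.367) and the transcription factor gene Egr1 (0.389). Btg2 measured 142, 208 and 238 CPM in WT and 172, 98.3 and 373 CPM in KO, the same order as Cyr61 in KO and in WT. Ctgf ranked 40th of 11788 among the genes nearest to Cyr61 (0.540). In the other direction, Cyr61 ranked only 10770th among the genes nearest to Ctgf, at the same difference. For Ctgf itself the nearest were Lasp1 (0.108), an actin-binding protein gene, Tmem44 (0.115) and Zswim3 (0.131). For Nov they were Camk1 (0.026), Dvl2 (0.026) and Cnot10 (0.027), and Sorbs3 (0.024) and Txlng (0.039) were among those nearest to Wisp2.

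The 26 immediate early genes on the list, none of which is a CCN gene, had their mean log2 CPM relative to the WT mean at 0.03, −0.15 and 0.12 in WT. In KO it was −0.14, −0.47 and 0.60. Cyr61 on the same scale was −0.78, 0.14 and 0.64 in WT and 0.14, −1.24 and 0.95 in KO. The low KO replicate 2 and the high KO replicate 3 were thus shared by Cyr61 and the list, and the low value of Cyr61 in WT replicate 1 was not. Of the 26 genes, 19 were highest in KO replicate 3, 13 were lowest in KO replicate 2 and 11 (42.3%) were both, as Cyr61 was. Of all 14145 tested genes, 2296 were highest in KO replicate 3, 2016 were lowest in KO replicate 2 and 3.02% were both. Both held for 50% of the macrophage and myeloid markers, 28.6% of the fat cell markers and 0% of the endothelial markers. These counts were chosen after the values were seen. Fos, the founding member of this class, measured 127, 167 and 263 CPM in WT and 74.4, 28.1 and 367 CPM in KO. None of the 26 genes passed in edgeR, either way, and none did at an unadjusted p under 0.05 or in DESeq2. The median log2 fold change of the list was 0.095, and −0.197 without KO replicate 3.

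**Figure D2:**
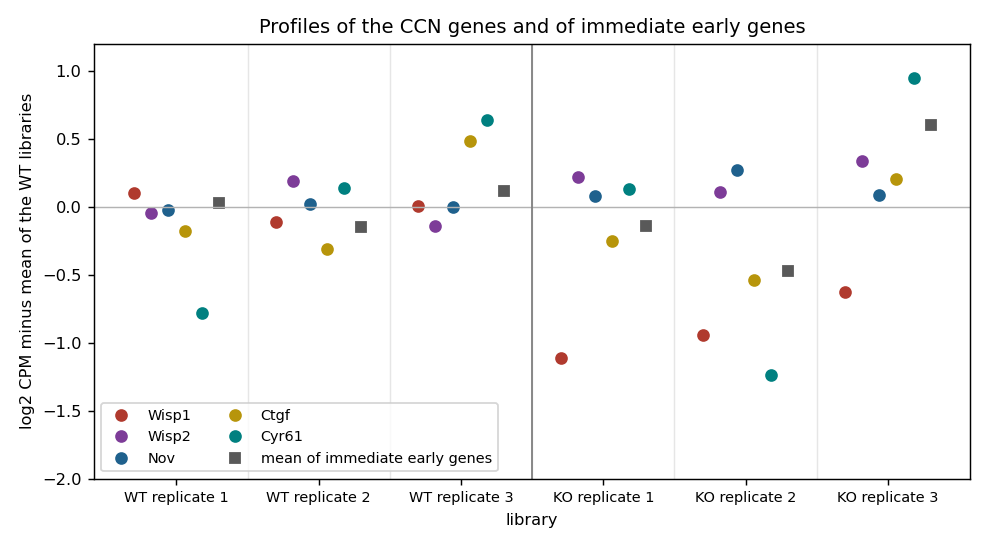
Log2 CPM of each CCN gene minus its mean over the WT libraries (y axis), by library (x axis), with the mean of the 26 immediate early genes as grey squares. Wisp1 is low in all 3 KO libraries (−1.11, −0.94 and −0.62), Nov and Wisp2 stay near 0, and Cyr61 ranges from −1.24 in KO replicate 2 to 0.95 in KO replicate 3.

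Markers of other cell types were uneven over those same libraries. Macrophage and myeloid markers (8 genes, all passing the filter, none at 0) summed to 97.5, 44.5 and 118 CPM in KO and to between 48.7 and 84.3 CPM in WT. Endothelial markers (8 genes, all passing, none at 0) summed to 327, 271 and 534 CPM in KO and to between 256 and 346 CPM in WT. Fat cell markers (7 genes, all passing, none at 0) summed to 153, 113 and 242 CPM in KO and to between 113 and 206 CPM in WT. KO replicate 3 was the highest library in each of these lists, as it was for Cyr61, and the part of these cells in the levels of Cyr61 and Ctgf was not tested. Schwann cell markers (6 genes, all passing, none at 0) were even, between 244 and 275 CPM over all 6 libraries.

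Spread between replicates set the members apart from each other. The SD of log2 CPM within a genotype was 0.93 for Cyr61, which is higher than in 98.7% of all tested genes, and 0.40 for Ctgf, at the 85.3 percentile. Nov (0.079), at the 20.5 percentile, varied less than the median tested gene (0.14). Wisp2 (0.146) and Wisp1 (0.189) lay at the 51.7 and 62.8 percentiles. Counting error was a small part of this for the abundant genes: it amounts to an SD of about 0.016 for Cyr61 and 0.082 for Wisp1 on the log2 scale.

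**Figure D3:**
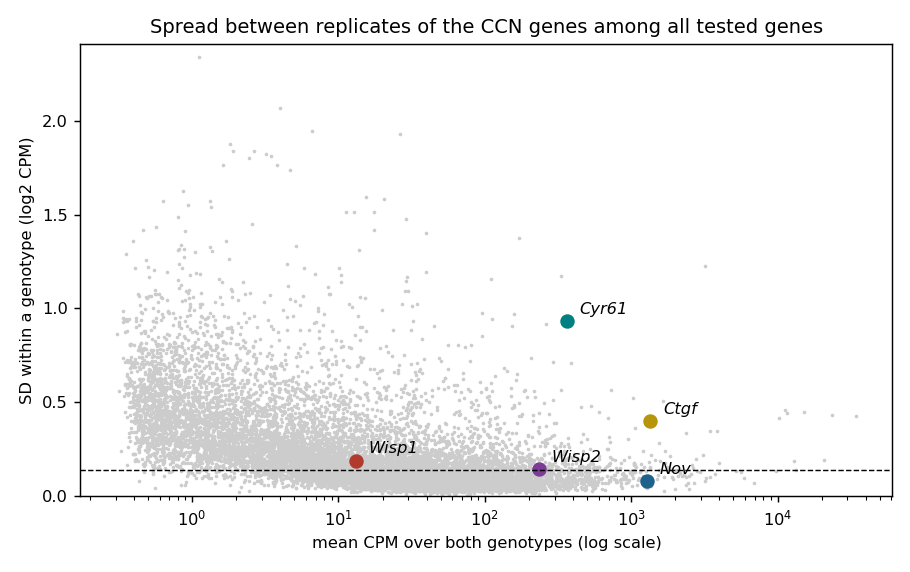
SD of log2 CPM between replicates of a genotype (y axis) against mean CPM (x axis, log scale) for all 14145 tested genes (grey) and the 5 CCN genes (coloured). The dashed line is the median of all tested genes, 0.14. Cyr61 at 0.93 and Ctgf at 0.40 stand above most genes of their level, and Nov at 0.079 lies below the line.

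Over the family, 2 members had log2 fold changes below 0 (Wisp1 and Ctgf) and 3 above 0 (Nov, Wisp2 and Cyr61). Wisp1 was the 1 member with KO libraries all lower than WT libraries, and Nov the 1 with KO libraries all higher, where 21.8% of all tested genes did not overlap between groups. By edgeR's adjusted p, 0 of the 5 members were called, and over all tested genes 0.00707% were. At an unadjusted p under 0.05 there was 1 (14.6% of all tested genes), and limma-voom called 0 (0.00707%). DESeq2 called 1 of the 5, Wisp1, where it called 1.85% of the genes to which it gave an adjusted p (1.22% lower and 0.627% higher in KO). Without the filter on low counts edgeR called Wisp1 as well (0.0362% of genes called, 0.0161% lower and 0.0201% higher in KO). As the family was picked on this comparison, these counts describe the members and support nothing.

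**Figure D4:**
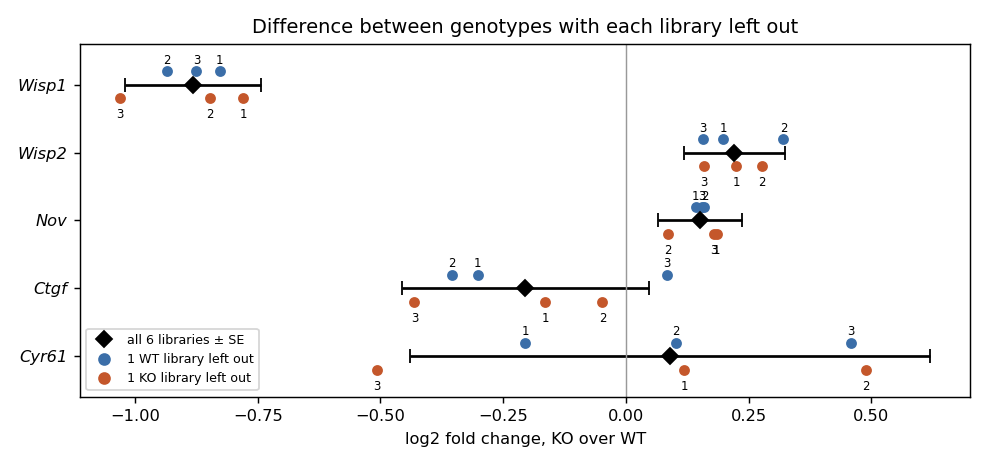
Log2 fold change (x axis, KO over WT) of each CCN gene from all 6 libraries (black diamond, bar = SE) and with 1 library left out (blue for a WT library, orange for a KO library, labelled by replicate number). Wisp1 stays between −1.03 and −0.78, and Cyr61 runs from −0.51 to 0.49.

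As a share of the summed CPM per kilobase of the 5 genes, Ctgf and Nov held most of the family's RNA in every library. Ctgf held between 32.6% (KO replicate 2) and 46.9% (WT replicate 3), and Nov between 28.8% (WT replicate 3) and 49.1% (KO replicate 2). The share of Wisp1 was 0.312%, 0.251% and 0.211% in WT and 0.121%, 0.153% and 0.135% in KO, lower in every KO library. In CPM, there were 65.2, 77.6 and 70.4 reads of Nov for each read of Wisp1 in WT and 162, 165 and 117 in KO.

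CCN proteins signal through integrins and coreceptors, of which 15 of 16 listed genes were tested. None passed in edgeR in either direction. At an unadjusted p under 0.05, 5 were lower and 0 higher in KO (7.76% and 6.8% of all tested genes), 12 of the 15 had values below 0, and the median log2 fold change was −0.19. Itgb3, the beta chain of the vitronectin receptor that binds several CCN proteins, measured 226, 172 and 287 CPM in WT and 128, 168 and 145 CPM in KO. Its log2 fold change was −0.63 ± 0.183 (SE), with an adjusted p of 0.273 in edgeR and 0.0324 in DESeq2. It was the only gene of the list that DESeq2 called, where it called 1.22% of all genes with an adjusted p as lower in KO. The Wnt coreceptor Lrp6 (−0.23 ± 0.071) and the heparan sulfate proteoglycan gene Sdc4 (−0.23 ± 0.076) had adjusted p of 0.277 and 0.279 in edgeR, and the KO and WT libraries of both did not overlap.

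Growth factors that CCN proteins bind were measured for 6 of 7 listed genes, and none passed in edgeR or in DESeq2. Bmp4 measured 18.4 CPM in WT and 27.2 CPM in KO (log2 0.57 ± 0.226, adjusted p = 0.321), and Bmp2 8.98 and 12.3 CPM (0.45 ± 0.211, 0.366). Fgf2, fibroblast growth factor 2, had −0.14 ± 0.107. The median of the list was 0.35, and it was 0.18 without KO replicate 1 and 0.175 without KO replicate 3.

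Upstream of Cyr61 and Ctgf stand YAP, TAZ, the TEAD factors and the Hippo kinases that restrain them. All 16 listed genes were tested, none passed in edgeR, 14 had values below 0 and the median was −0.14. At an unadjusted p under 0.05, 6 were lower and 1 higher in KO, where 7.76% and 6.8% of all tested genes were. Lats1, a Hippo kinase that inhibits YAP, measured 83.2 ± 5.35 CPM in WT and 63 ± 3.51 CPM in KO (−0.40 ± 0.071), with an adjusted p of 0.239 in edgeR and 0.00707 in DESeq2. DESeq2 called 1 of the 16 genes, Lats1, where it called 1.22% of all genes with an adjusted p as lower in KO. The DNA-binding partner Tead1 (−0.27 ± 0.066) and Wwtr1, which encodes TAZ (−0.24 ± 0.07), had adjusted p of 0.263 and 0.273 in edgeR. The 2 genes above 0 were also TEAD factors, Tead4 (0.72 ± 0.297, adjusted p = 0.33 in edgeR) with a mean of 0.627 CPM in WT and Tead2 (0.30 ± 0.133, 0.347), both named after their values were seen, and their groups did not overlap. Of the 4 genes of serum response factor and its coactivators, 0 passed in edgeR or DESeq2, and the median was −0.062 (−0.022 without WT replicate 2 and −0.11 without WT replicate 1). In this list 2 values lay below 0 and 2 above. At an unadjusted p under 0.05, 2 were lower and 0 higher in KO, where 7.76% and 6.8% of all tested genes were. These were Srf itself (−0.20 ± 0.074, adjusted p = 0.293 in edgeR) and Myocd, the myocardin coactivator, both without overlap between the groups. Myocd had the largest difference of the 4 at −0.40 ± 0.152.

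Regulators of Wisp1 and of Ctgf were examined in the same way. Of 9 tested genes of beta-catenin and its partners, 0 passed in edgeR or DESeq2, 7 had values below 0 and the median was −0.18. At an unadjusted p under 0.05, 6 of these were lower and 0 higher, again beside 7.76% and 6.8% of all tested genes. Ctnnb1, beta-catenin itself, measured 951, 893 and 929 CPM in WT and 773, 816 and 798 CPM in KO. All its KO libraries lay below all WT libraries (−0.22 ± 0.071, adjusted p = 0.279 in edgeR). The Wnt coreceptor Lrp5 had −0.55 ± 0.174 (0.277). Of 10 genes of TGF-beta ligands, receptors and SMADs, 0 passed in edgeR or DESeq2. Their median was −0.052, and 0.0074 without KO replicate 1. At an unadjusted p under 0.05, 2 were lower and 0 higher, where 7.76% and 6.8% of all tested genes were. These were Smad4, the SMAD shared by the TGF-beta and BMP branches (−0.21 ± 0.051, adjusted p = 0.263 in edgeR), and the receptor gene Tgfbr1 (−0.28 ± 0.075, 0.264), both without overlap between the groups. The ligand gene Tgfb3 had −0.16 ± 0.093 (0.442), with overlapping groups.

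Lists of other target genes of those regulators were read next. The 21 YAP and TEAD target genes, all tested, had a median of −0.097, ranging from −0.043 without KO replicate 1 to −0.15 without KO replicate 3. None passed in edgeR or DESeq2. Ankrd1, a target often measured alongside Cyr61 and Ctgf, measured 9.73 CPM in WT and 12.6 CPM in KO (0.38 ± 0.128, adjusted p = 0.279), with all KO libraries above all WT libraries. Myof (−0.15 ± 0.058) and Amotl1 (−0.28 ± 0.117) went the other way, with adjusted p of 0.317 and 0.335.

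The 11 tested Wnt and beta-catenin target genes of 17 listed, the list to which Wisp1 itself would belong, had a median of 0.034 (−0.033 without WT replicate 2 and 0.13 without KO replicate 1). In this list 5 values lay below 0 and 6 above, and 0 genes passed in edgeR or DESeq2. Znrf3, a feedback inhibitor of Wnt receptors, measured 18.3 CPM in WT and 13.8 CPM in KO (−0.41 ± 0.116, adjusted p = 0.266). Ccnd1, cyclin D1, had 0.52 ± 0.222 and Nkd1, another feedback inhibitor, −0.27 ± 0.138.

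Of the TGF-beta target genes, all tested, 14 of 15 had values below 0, with a median of −0.20 (−0.13 without KO replicate 1). None passed in edgeR, and DESeq2 called 1, Fn1, where it called 1.22% of all genes with an adjusted p as lower in KO. This matrix gene, also near Wisp1 in profile, measured 4727, 4751 and 4846 CPM in WT and 2005, 3065 and 3912 CPM in KO. Its groups did not overlap (−0.67 ± 0.219, adjusted p = 0.279 in edgeR and 0.0359 in DESeq2). Skil, a SMAD corepressor induced by TGF-beta, had −0.34 ± 0.1, and the collagen chain Col1a1 −0.35 ± 0.132. Of the 15 genes, 11 were lowest in KO replicate 1, as were 3199 of all 14145 tested genes. That library was also the highest in heart muscle markers and in mitochondrial share, and the part of these in the values was not tested.

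Among 19 tested genes of other matricellular proteins, of 24 listed, 0 passed in edgeR, 12 had values below 0 and the median was −0.10 (−0.21 without KO replicate 3). DESeq2 called 2, both lower in KO, where it called 1.22% of all genes with an adjusted p as lower. Tnr, tenascin R, measured 8.34, 16.1 and 9.07 CPM in WT and 2.68, 2.68 and 5.23 CPM in KO (log2 −1.65 ± 0.349, adjusted p = 0.239 in edgeR and 0.000892 in DESeq2). Fbln7, a fibulin gene, measured 57.9 and 37.3 CPM (−0.64 ± 0.179, 0.268 and 0.0364). Thrombospondin Thbs3 had a value above 0 (0.31 ± 0.108). Spp1, osteopontin, had the highest value of the list, 2.45 ± 0.96 (adjusted p = 0.317 in edgeR), and was named after its value was seen. Its level was low, at 0.623, 0.477 and 0.455 CPM in WT and 7.17, 1 and 0.476 CPM in KO. The groups overlapped, and KO replicate 1 stood far above the other libraries.

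Of 12 tested genes of other proteins that share the insulin-like growth factor binding module, 0 passed in edgeR, 6 lay below 0 and 6 above, and the median was 0.029. That median was below 0 without KO replicate 1 (−0.037), without KO replicate 3 (−0.039), without WT replicate 2 (−0.033) and with genes under a mean count of 50 left out (−0.053). DESeq2 called 1, Igfbp2, where it called 0.627% of all genes with an adjusted p as higher in KO. Igfbp2 measured 10.2 ± 2.32 CPM in WT and 17.1 ± 3.6 CPM in KO (0.75 ± 0.202, adjusted p = 0.264 in edgeR and 0.0426 in DESeq2). Esm1, endothelial cell specific molecule 1, had 0.61 ± 0.239 at levels of 1.38 and 2.1 CPM, and Igfbp3, which is also on the YAP and TEAD target list, had −0.80 ± 0.402. Igfbp3 measured 6.23, 2.98 and 2.32 CPM in WT and 2.32, 1.53 and 2.73 CPM in KO. Its groups overlapped, and WT replicate 1 stood well above the other libraries.

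**Figure D5:**
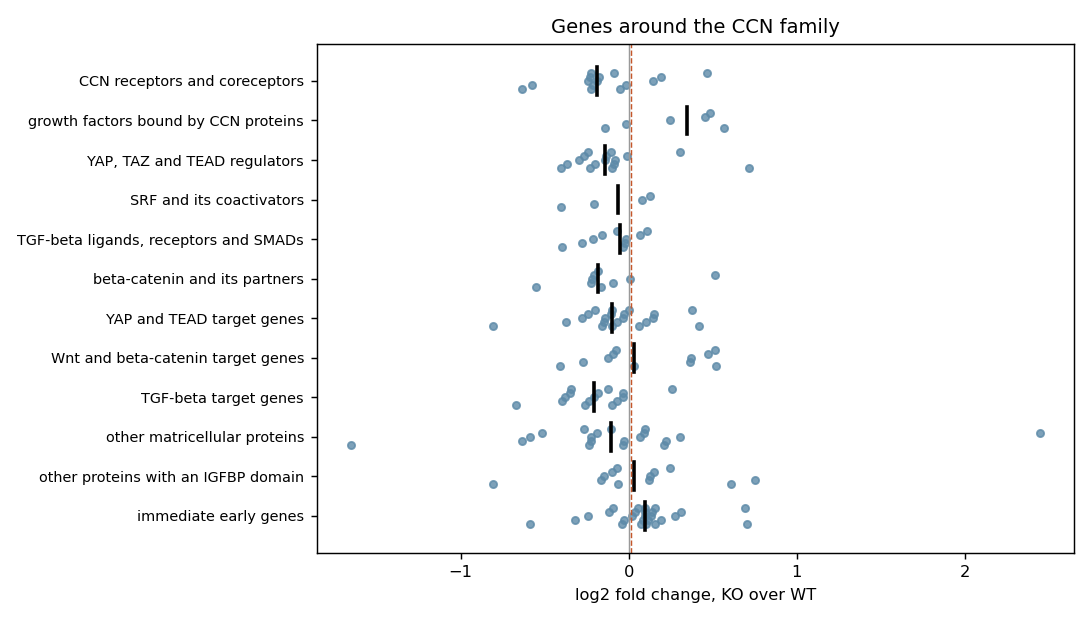
Log2 fold change (x axis, KO over WT) of every tested gene (points) of the lists around the CCN family (y axis), with the median of each list as a black bar. The orange dashed line is the median of all 14145 tested genes, 0.012. List medians run from −0.20 for TGF-beta targets to 0.35 for growth factors that CCN proteins bind.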

How the data were processed

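Total RNA of 6 aortic libraries was prepared with the Illumina TruSeq Stranded mRNA kit, per the labels' protocols. The authors deposited raw read counts per gene. The submitters' processing notes list Subread 1.6.1 with featureCounts, STAR 2.6.0c, Trimmomatic 0.36 and the build GRCm38, with no settings. Annotation, strand setting and handling of multi-mapping reads: not given in the sources used here. Counts were fitted with edgeR 4.0.16 (R 4.3.3): TMM normalization, filterByExpr (minimum count 10, total 15), genotype as the only term, a two-sided quasi-likelihood test and Benjamini-Hochberg adjustment over 14145 genes at a threshold of 0.05. Standard errors came from the fold change and F statistic. Log2 CPM used a prior count of 2. Alternatives were DESeq2 1.42.0 (size factors and test), limma-voom (limma 3.58.1), other filters, mitochondrial and hemoglobin genes left out, a replicate block, and each library left out. The fit was tested on simulated data.

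The members and gene lists were chosen with earlier results of these data known. The rule named the 5 members and Wisp3, up to 3 tested genes of smallest p in each list, with summed levels for marker lists, and the 5 genes nearest in profile to Wisp1 and 3 nearest to each other member, at a mean of at least 1 CPM and without clone-like or predicted names. Gene lengths were the union of exons in GENCODE M21, and older symbols were matched through RefSeq synonyms. A gene that this rule named is not reported here.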

Additional observations from a re-analysis of the deposited data

How the results depend on the processing

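The log2 fold changes of all 5 members moved by less than 1 SD of the replicates in every alternative and left-out library tried, but those of Ctgf and Cyr61 changed sign with some libraries left out, and that of Cyr61 also in limma-voom and with the replicate block. Leaving out single libraries gave −1.03 to −0.78 for Wisp1, −0.51 to 0.49 for Cyr61, −0.43 to 0.084 for Ctgf, 0.086 to 0.19 for Nov and 0.16 to 0.32 for Wisp2. The count of called genes was 1 in edgeR, 192 in DESeq2, 9 without a filter, 0 with the replicate block, and from 0 (without WT replicate 1) to 3 (without KO replicate 2) over left-out libraries, and the cause was not tested. The replicate numbers were not shown to pair the libraries: deviations of same-numbered libraries correlated across genes at 0.107, 0.134 and −0.056 for numbers 1, 2 and 3, and the labels do not say that the numbers mark the 3 pairs of mice. With the replicate block, the log2 fold change was −0.89 for Wisp1, −0.032 for Cyr61, 0.15 for Nov, 0.22 for Wisp2 and −0.19 ± 0.093 (SE) for Ctgf, which was lower in KO within each of the 3 numbers. Not every library correlated best with its own number. The level of Wisp1 in WT was 3.36 CPM per kilobase with the longest transcript as length. The median of growth factors that CCN proteins bind ran from 0.17 (without KO replicate 3) to 0.44 (without WT replicate 3). The median of cartilage markers was −0.069 with genes under a mean count of 50 left out, since fewer genes then remained, and −0.13 to −0.40 over left-out libraries, against −0.30. Of 260 list medians under alternatives, 4 moved by more than the replicate spread. Depth limits Wisp1 most, with 153 to 442 counts a library.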
